A study of Mus musculus with 25 samples.

Results

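The intervals described here lie in 16 imprinted gene domains of the mouse genome, the stretches around genes that are expressed from only the maternal or only the paternal chromosome. Members were taken by position: every interval of the deposited count table that starts inside one of 16 windows of build mm9, each named after its best-known imprinted gene. This gave 266 of 22749 intervals, 1.17% of the table, over 18.1 Mb. The choice was made with earlier results of these data known. An interval is the piece of DNA between neighbouring CCCGGG sites, and its value is a count of sequenced reads.

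The study measured DNA methylation in the pancreas of 25 FVB mice, an inbred strain, by methylation-specific amplification and sequencing (MSA-seq). Islets, the hormone-secreting part of the pancreas, came from mice at postnatal day 21 (P21, weaning) or day 180 (P180, adult), nursed until P21 among 9 pups (control litters) or among 4 (small litters). This gave 4 islet groups of 5 mice: control at P21, small-litter at P21, control at P180 and small-litter at P180. The last group, 5 control mice at P21, gave whole pancreas, labelled as acinar cells and stated to be about 98% exocrine, the enzyme-secreting part. It is called exocrine tissue here. The islets had been picked by hand in 3 rounds. The litters of birth are not given, so mice of 1 group may be siblings, and p-values measure the spread between these mice. The table holds DNA methylation and no expression, so the tissue labels could not be checked on marker genes.

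At an imprinted domain a control region of DNA is methylated in the egg or in the sperm, and the mark survives the reprogramming that follows fertilisation. In somatic cells it therefore sits on 1 parental copy, and it sets which copy of the neighbouring genes is read. Other sites of a domain, in gene bodies and between genes, are methylated on both copies or neither and can vary with tissue and age like the rest of the genome. Several imprinted genes act in islet growth or hormone signalling, among them Igf2 (a growth factor), Igf2r (the receptor that clears it), Grb10 (an adaptor that restrains the insulin receptor), Gnas (the stimulatory G-protein alpha subunit) and Nnat (neuronatin, a small membrane protein of beta cells). Counts do not show the parent of origin.

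MSA-seq reads methylation through 1 recognition site. SmaI destroys unmethylated CCCGGG sites with a blunt cut, XmaI then opens the methylated ones with a sticky end, and only pieces that carry such ends on both sides take the adaptors and are amplified. A high count therefore means that both end sites of an interval were methylated, on a relative scale with no absolute percentage. To show what such a site looks like at imprinted genes, the RefSeq promoters (build GRCm38, 250 bases before to 50 after each start) were searched for CCCGGG, which reads the same on both strands. Of 44 imprinted genes of these windows, 32 were matched by symbol, with 49 promoters. The site was present in 7 of them (14.3%), from 6 genes, a share close to that over all 32851 promoters, 13.5%. The 60-base stretches below, 5′ to 3′, hold the site in capitals at Igf2r, at a pair of Grb10 promoters, and at Dio3, a thyroid-hormone deiodinase gene at the far end of the Dlk1 domain.
Igf2r: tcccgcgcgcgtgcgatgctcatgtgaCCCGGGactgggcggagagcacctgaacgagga
Grb10, first promoter: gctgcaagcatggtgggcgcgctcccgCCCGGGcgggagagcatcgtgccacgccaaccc
Grb10, second promoter: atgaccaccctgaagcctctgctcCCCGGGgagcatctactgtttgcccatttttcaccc
Dio3: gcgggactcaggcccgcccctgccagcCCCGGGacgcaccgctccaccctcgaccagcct
The count table is on another build (mm9), and whether these sites end any of its intervals was not examined. No annotation of mm9 was used, so intervals are named by window and position, and no interval is assigned to a gene, exon or intron. Positions are printed as the table gives them.

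The windows fall into 3 lists by the parental copy that carries the methylation mark of the control region in somatic cells, which is textbook knowledge. Whether each mark was set in the germline or later was not examined. The paternal mark is found in 3 windows: Zdbf2 (chromosome 1, 62.8 to 63.6 Mb, 7 intervals), Rasgrf1 (chromosome 9, 89.4 to 90.2 Mb, 14) and Dlk1 with Meg3 (chromosome 12, 109.5 to 111.8 Mb, 62). One window holds both kinds, the paternal mark of Igf2/H19 and the maternal mark of Kcnq1 (chromosome 7, 149.4 to 151.2 Mb, 46 intervals). The other 12 carry a maternal mark. On chromosome 2 these are Nnat (157.0 to 157.8 Mb, 30 intervals) and Gnas (173.5 to 174.6 Mb, 26). Chromosome 6 holds Peg10 (4.3 to 5.2 Mb, 3) and Mest (30.2 to 31.2 Mb, 10), and chromosome 7 holds Peg3 (6.2 to 7.2 Mb, 10) and Snrpn (66.5 to 67.8 Mb, 5). The rest are Plagl1 (chromosome 10, 12.4 to 13.4 Mb, 11), Grb10 (chromosome 11, 11.3 to 12.5 Mb, 4), Zrsr1 (chromosome 11, 22.4 to 23.4 Mb, 6), Peg13 (chromosome 15, 72.2 to 73.3 Mb, 11), Igf2r (chromosome 17, 12.3 to 13.4 Mb, 16) and Impact (chromosome 18, 12.7 to 13.6 Mb, 5). Each window also spans genes that are not imprinted.

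In size and level the members resembled the table they came from. Their median length was 1159.5 bp, against 1163 bp over all intervals, with a range from 96 to 2982 bp. Levels are given as CPM, counts per 1000000 counts of the library, after trimmed-mean (TMM) scaling of the libraries. The median over the 25 libraries was 19.9 CPM for members and 17.2 CPM for all intervals, and members ran from 1.69 to 426 CPM. The highest, chr12:110065029-110065833 in the Dlk1 window, had 424 CPM ± 53.7 in control P21 islets and 455 ± 70.1 in exocrine tissue (SD, n = 5 each). Of the members, 78 (29.3%) began where the previous interval ended, and such neighbours share an end site.

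Library totals ran from 2912624 to 10591677 counts. Members took 1.28% ± 0.0277 of the counts in control P21 islets and 1.343% ± 0.0325 in exocrine tissue (SD, n = 5 each), and the other islet groups averaged 1.281%, 1.277% and 1.304%. Mice of 1 group varied widely at single intervals, with a coefficient of variation beyond counting error of 31.7% (tissue fit) and 30.6% (islet fit).

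The first comparison set exocrine tissue against islets, both from control mice at P21. Exocrine tissue was higher at 28 of the 263 members tested (10.6%, against 8.07% of all 22514 intervals tested) and lower at 36 (13.7%, against 14.0%). These calls come from edgeR's quasi-likelihood test on the counts, with Benjamini-Hochberg adjustment over all intervals and a threshold of 0.05, and all adjusted p-values below are of that kind unless another tool is named. The called share of members was thus near that of the whole table. In bulk DNA a different mix of cell types and a change within cells cannot be told apart. The members' median log2 fold change, exocrine over islets, was -0.04 against -0.02 over all intervals, and the median size of the change was 0.41 against 0.43. Among called members, 11 were over 2-fold higher and 22 over 2-fold lower. All 5 exocrine libraries lay above all 5 islet libraries at 26 members (9.89%, against 7.09% of all intervals) and below them at 24 (9.13%, against 8.35%). Of these, 16 of the 26 and all 24 were also called.

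By parental list, the 135 tested intervals of the maternal windows had 11 higher (8.15%) and 20 lower (14.8%), with a median log2 fold change of -0.12. In the 3 paternal windows 8 of 83 were higher (9.64%) and 13 lower (15.7%), with a median of 0.05. The Igf2/H19/Kcnq1 window stood the other way round, with 9 of 45 higher and 3 lower (6.67%) and a median of 0.27. These shares are a description of 16 windows of very unequal size. In the Peg10, Snrpn and Grb10 windows no interval was called by this test, of 3, 5 and 4 tested, and none of their 12 intervals had an adjusted p under 0.165.

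**Figure D1:**
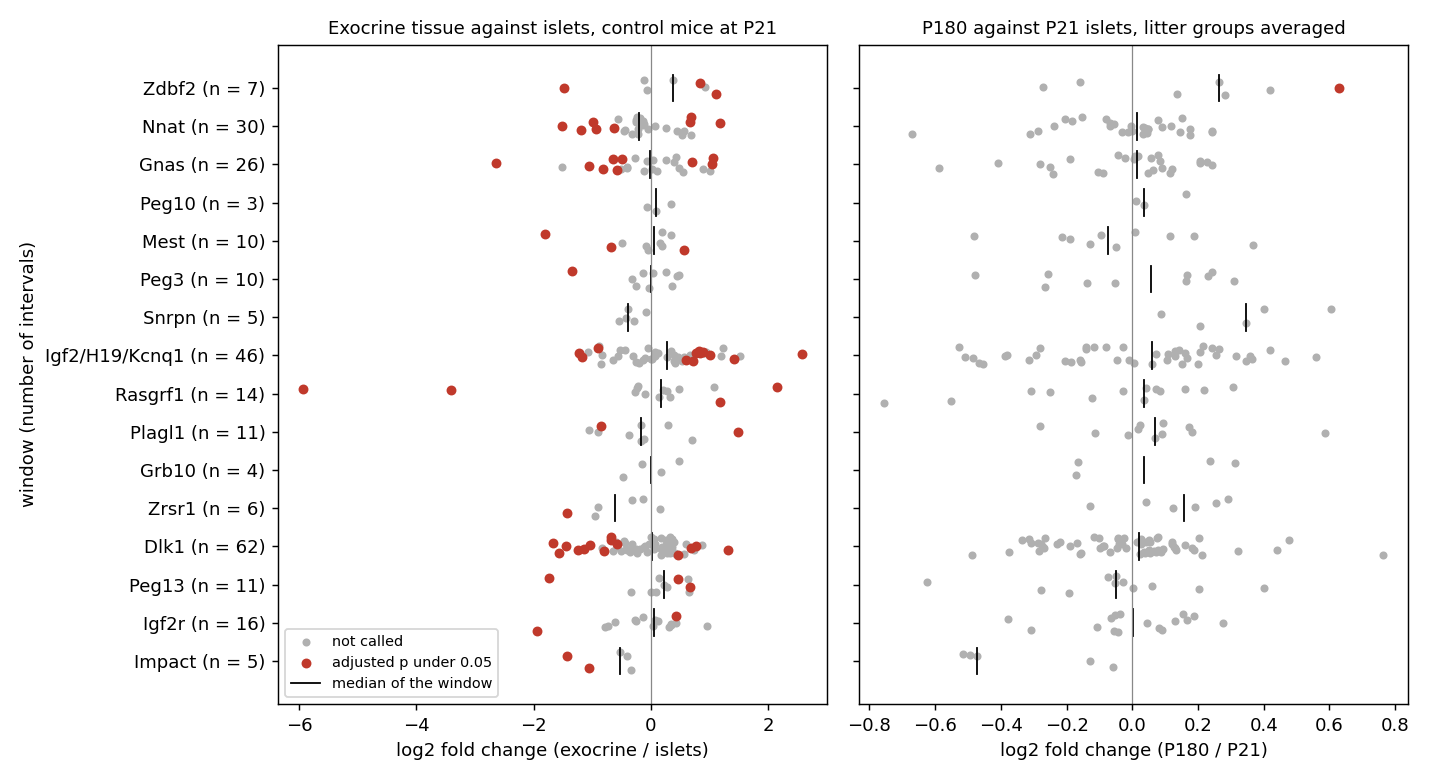
Each point is 1 interval, placed by its log2 fold change (horizontal axes) in its window (rows, with the number of intervals in the table, of which up to 3 in all were not tested). The left panel gives exocrine tissue over islets and the right panel P180 over P21 islets on a narrower axis. Red points passed an adjusted p of 0.05 and black lines are window medians. On the left called intervals reach -5.93 in the Rasgrf1 window and 2.58 in the Igf2/H19/Kcnq1 window, and on the right the only red point is in the Zdbf2 window.

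The strongest difference of all members was a loss at the end of the Rasgrf1 window. Rasgrf1 encodes an exchange factor that activates Ras and is expressed from the paternal copy. At chr9:90164504-90164671, an interval of 167 bp, the control P21 islets of replicates 1 to 5 had 34.8, 44.5, 11.7, 9.85 and 9.19 CPM. The exocrine libraries had 0.169, 0.617, 1.07, 0 and 0 CPM. Every islet library of that group lay far above every exocrine one, with 422 counts against 9 over the groups, so the size of the fold is poorly determined. The log2 fold change was -5.93 ± 0.77 (SE, adjusted p = 0.000186).

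The adjoining interval, chr9:90164671-90165790, shares a site with it and showed the same pattern. Its control P21 islets had 12.6, 16.5, 3.99, 3.77 and 6.13 CPM, and its exocrine libraries 1.19, 0.411, 0.214, 0.890 and 1.25. The groups did not overlap, and the log2 fold change was -3.41 ± 0.55 (adjusted p = 0.000556, 166 counts against 22). The means of small-litter P21 islets, 23.0 CPM ± 14.2 and 9.21 ± 5.26, were near those of controls, 22.0 ± 16.5 and 8.60 ± 5.68 (SD, n = 5 each). Control P180 islets of replicate 3 had 0.525 and 0.262 CPM, within the exocrine range at both, while their 4 group mates had at least 9.57 and 5.17. Elsewhere in this window chr9:90119999-90121153 rose by 1.17 ± 0.32 (adjusted p = 0.0159) and chr9:90151446-90152054 by 2.15 ± 0.59 (adjusted p = 0.0171) on the log2 scale. The other 10 tested intervals did not pass.

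In the Mest window 1 interval had the smallest adjusted p of all members. Mest encodes an enzyme of the hydrolase fold and is expressed from the paternal copy. At chr6:30488818-30489983 the control P21 islets had 118, 99.5, 115, 119 and 94.4 CPM. The exocrine libraries had 21.8, 46.2, 34.4, 32.0 and 27.6 CPM. The groups were far apart, and the log2 fold change was -1.80 ± 0.19 (adjusted p = 1.92e-05). Of the 9 other intervals of the window, chr6:30320759-30322643 fell by 0.69 on the log2 scale (adjusted p = 0.0435, and 0.059 once library trends on length were taken out) and chr6:30602184-30603377 higher by 0.56 (adjusted p = 0.026).

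The Gnas window held both directions. Gnas makes several transcripts from separate first exons, some from 1 parental copy only. At chr2:173900466-173900763 the control P21 islets had 28.3, 31.3, 19.9, 16.6 and 7.91 CPM and the exocrine libraries 3.39, 4.32, 1.71, 4.23 and 3.59. The groups did not overlap, with a log2 fold change of -2.64 ± 0.38 (adjusted p = 0.000234). Control P180 replicate 3, at 4.197 CPM, was again the islet library at the exocrine level, and its 4 group mates had 19.4 to 25.3.

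About 0.2 Mb further along, 3 successive intervals of the Gnas window were all higher in exocrine tissue. The middle one, chr2:174125152-174125550, had 135, 142, 89.3, 75.5 and 122 CPM in control P21 islets and 215, 233, 209, 214 and 323 in exocrine tissue. All exocrine libraries lay above all islet libraries, replicate 5 highest, and the log2 fold change was 1.03 ± 0.19 (adjusted p = 0.00151). Its adjoining neighbour chr2:174125550-174125756 gave 1.06 ± 0.24 (adjusted p = 0.00626) and chr2:174123972-174124927 gave 0.69 ± 0.17 (adjusted p = 0.00985). The 4 islet groups differed little there: at the middle interval their means were 113, 105, 104 and 113 CPM. Of the 26 intervals of the window 3 were higher and 6 lower in all. At the interval with the most counts, chr2:173542239-173543038, the means were 368 CPM ± 34.4 in islets and 388 ± 51.6 in exocrine tissue (log2 fold change 0.02 ± 0.13), while the intervals on either side of it were both called lower, by -0.82 and -0.50.

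The Nnat window had the opposite kind of run. At chr2:157301476-157301985 the control P21 islets had 66.5, 55.2, 50.9, 46.1 and 42.9 CPM, and the exocrine libraries 25.6, 23.6, 19.4, 24.0 and 26.1. Exocrine tissue was thus below islets in every pairing of libraries, and the log2 fold change was -1.19 ± 0.18 (adjusted p = 0.000338). Both adjoining intervals were also lower. At chr2:157301217-157301476 the change was -0.94 ± 0.22 (adjusted p = 0.0061), and at chr2:157301985-157302348 it was -0.99 ± 0.26 (adjusted p = 0.0142). Both are short, 259 and 363 bp. When the trend on length was removed in each library, the first fell to -0.33 (adjusted p = 0.358) and was no longer called. The second lost its call without control P21 replicate 1 (adjusted p = 0.0566). Further along, chr2:157501503-157503339 was lower by -1.52 ± 0.28 (adjusted p = 0.00149), and chr2:157487634-157490201 was higher by 1.17 ± 0.32 (adjusted p = 0.015). The window had 3 intervals higher and 5 lower of 29 tested, and 20 of its 29 log2 fold changes were negative.

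**Figure D2:**
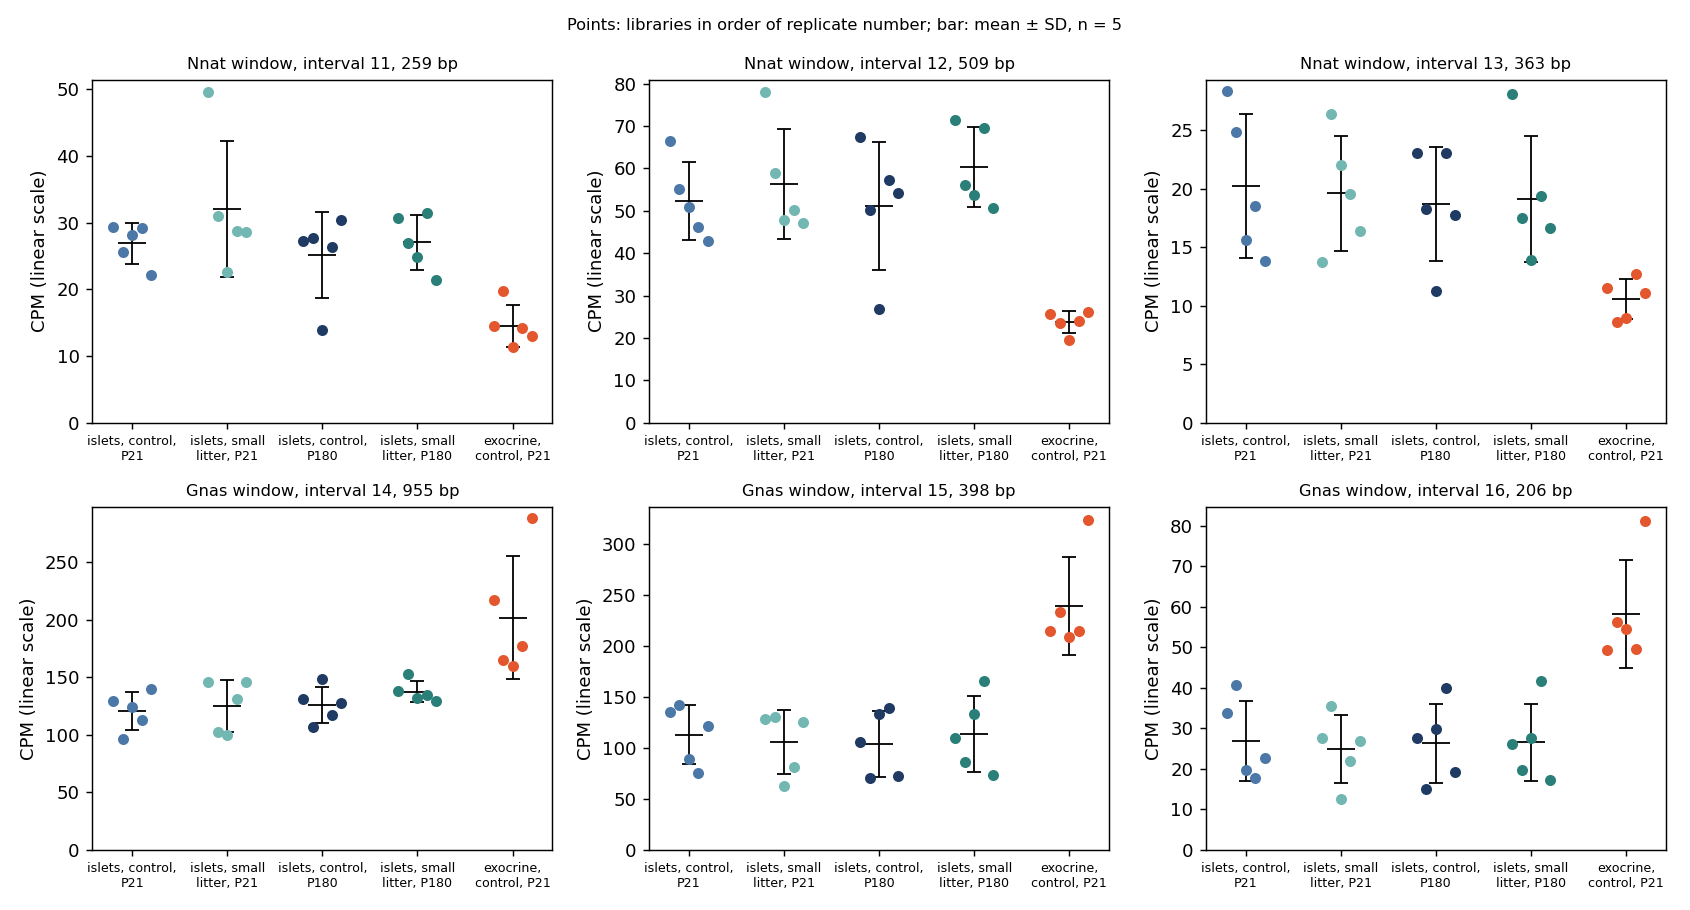
CPM of the 3 successive intervals of the Nnat window (top) and of the Gnas window (bottom), with 1 panel per interval, numbered along its window. Points are libraries in order of replicate number within each of the 5 groups, and bars give mean ± SD (n = 5). Exocrine points sit below all control P21 islet points in the top row and above them in the bottom row. In the bottom row exocrine replicate 5 is highest in every panel.

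The Dlk1 window is the largest, and its domain holds the growth regulator Dlk1 (paternally expressed), the noncoding RNAs Meg3, Rian and Mirg (maternally expressed) and Dio3. Exocrine tissue was higher at 4 of its 62 intervals and lower at 10, and the median log2 fold change was 0.02. At chr12:111187525-111187970 control P21 islets had 181, 168, 110, 95.4 and 72.2 CPM, against 30.3, 34.7, 57.4, 51.8 and 46.0 in exocrine tissue. The groups did not overlap (log2 fold change -1.56 ± 0.26, adjusted p = 0.000911). The change at chr12:109631493-109633045 was -1.45 ± 0.27 (adjusted p = 0.0018) and at chr12:111316036-111316601 it was -1.14 ± 0.18 (adjusted p = 0.000589). At the 198 bp interval chr12:109591260-109591458 it was -1.67 ± 0.42 (adjusted p = 0.0109), and -0.77 (adjusted p = 0.151) with the length trends removed. On the higher side chr12:110107939-110108708 went from 297 CPM ± 17.7 to 492 ± 71.4 (log2 fold change 0.68 ± 0.14, adjusted p = 0.00314).

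The last of the paternally marked windows, Zdbf2, named after a zinc-finger gene expressed from the paternal copy, had an adjoining pair of intervals that were both higher. At chr1:62955838-62956592 control P21 islets had 57.0, 50.9, 47.5, 47.1 and 51.6 CPM, and exocrine tissue had 101, 105, 113, 117 and 133. The gap between the groups was wide against their spread, and the log2 fold change was 1.11 ± 0.15 (adjusted p = 0.000104). Its left neighbour chr1:62955013-62955838 had 77.1, 65.5, 77.3, 86.3 and 85.2 CPM in islets against exocrine values of 158, 128, 128, 136 and 172. Here the log2 fold change came to 0.83 ± 0.14 (adjusted p = 0.000938). Another interval, chr1:63447825-63448017 of 192 bp, was lower by -1.49 ± 0.42 (adjusted p = 0.0193), and with the length trends removed by -0.53 (adjusted p = 0.209).

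The Igf2/H19/Kcnq1 window joins the growth factor gene Igf2 and the noncoding H19 with the domain of the noncoding Kcnq1ot1, which silences growth-restraining genes on the paternal copy. By count it had the most higher calls of any window, 9 of 45 tested, where 8.07% of all intervals were higher. By share it was not first, since the small Zdbf2 window had 2 of 7, and the larger Dlk1 window had 4 of 62. At chr7:150115621-150117076 control P21 islets had 58.7, 34.2, 43.9, 51.7 and 49.8 CPM, and exocrine tissue had 93.1, 87.5, 78.4, 81.2 and 79.9. At chr7:150565675-150566596, the interval with the most counts here, the values were 182, 128, 196, 178 and 260 in islets and 353, 282, 304, 265 and 405 in exocrine tissue. Neither pair of groups overlapped, although islet replicate 5 came within a few CPM of the lowest exocrine library in the second. The log2 fold changes were 0.77 ± 0.16 (adjusted p = 0.00379) and 0.72 ± 0.17 (adjusted p = 0.00842). Those at chr7:150147709-150150361 and chr7:150613389-150614602 were 0.88 ± 0.24 (adjusted p = 0.0159) and 0.81 ± 0.18 (adjusted p = 0.00566).

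The largest rise of any member, at chr7:151155304-151157881 at the end of that window, rests on few counts, 17 in the islets and 146 in exocrine tissue. The islets had 0.510 to 1.23 CPM and the exocrine libraries 10.8, 5.55, 4.06, 2.67 and 3.74, with replicate 1 highest. The log2 fold change was 2.58 ± 0.48 (adjusted p = 0.00169). Against small-litter P21 islets it was 1.57 (adjusted p = 0.0387), since those had 0.633 to 2.71 CPM.

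The remaining maternally marked windows hold few intervals. In the Igf2r window chr17:13385882-13386115, 233 bp long, was lower by -1.94 ± 0.42 (adjusted p = 0.00414), and the interval with the most counts, chr17:13388396-13388998, was higher by 0.43 ± 0.15 (adjusted p = 0.0472). In the Peg13 window, which surrounds a noncoding RNA gene, chr15:72890434-72891307 had 6.14, 5.74, 6.75, 5.42 and 3.83 CPM in islets and 2.03, 2.47, 1.07, 0.890 and 2.03 in exocrine tissue. The groups did not overlap, with a log2 fold change of -1.74 ± 0.38 (adjusted p = 0.00502), and 2 other intervals of that window were higher. The Peg3 and Zrsr1 windows each had 1 lower interval, of 182 and 211 bp, and neither kept an adjusted p under 0.05 with length trends removed (0.233 and 0.209). In the Plagl1 window, named for a zinc-finger transcription factor, 1 interval was higher and 1 lower.

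In the Impact window all 5 log2 fold changes were negative, from -1.43 to -0.34, and 2 were called, at -1.43 ± 0.45 (adjusted p = 0.0318) and -1.06 ± 0.31 (adjusted p = 0.0215). The second, 208 bp long, fell to -0.19 (adjusted p = 0.543) with length trends removed. Summed over the 5 intervals, exocrine replicates 1 to 5 had 38.6, 72.1, 68.1, 64.5 and 35.1 CPM, against 66.9 to 92.8 in control P21 islets. The 5 intervals of the Snrpn window were also all on the negative side, from -0.54 to -0.09, with none called. Their exocrine sums were 32.0, 44.8, 39.7, 43.2 and 13.7 CPM, against 35.9 to 53.1 in control P21 islets. In both windows exocrine replicates 1 and 5 were the lowest, so the shared sign rests largely on them, and the reason was not tested. The 5 intervals of the Snrpn window are nearly the same length, 2509 to 2542 bp, in 2 adjoining pairs and 1 apart. Whether reads can be placed on 1 of them alone was not tested, so their separate levels, 6.18 to 15.1 CPM, are uncertain.

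**Figure D3:**
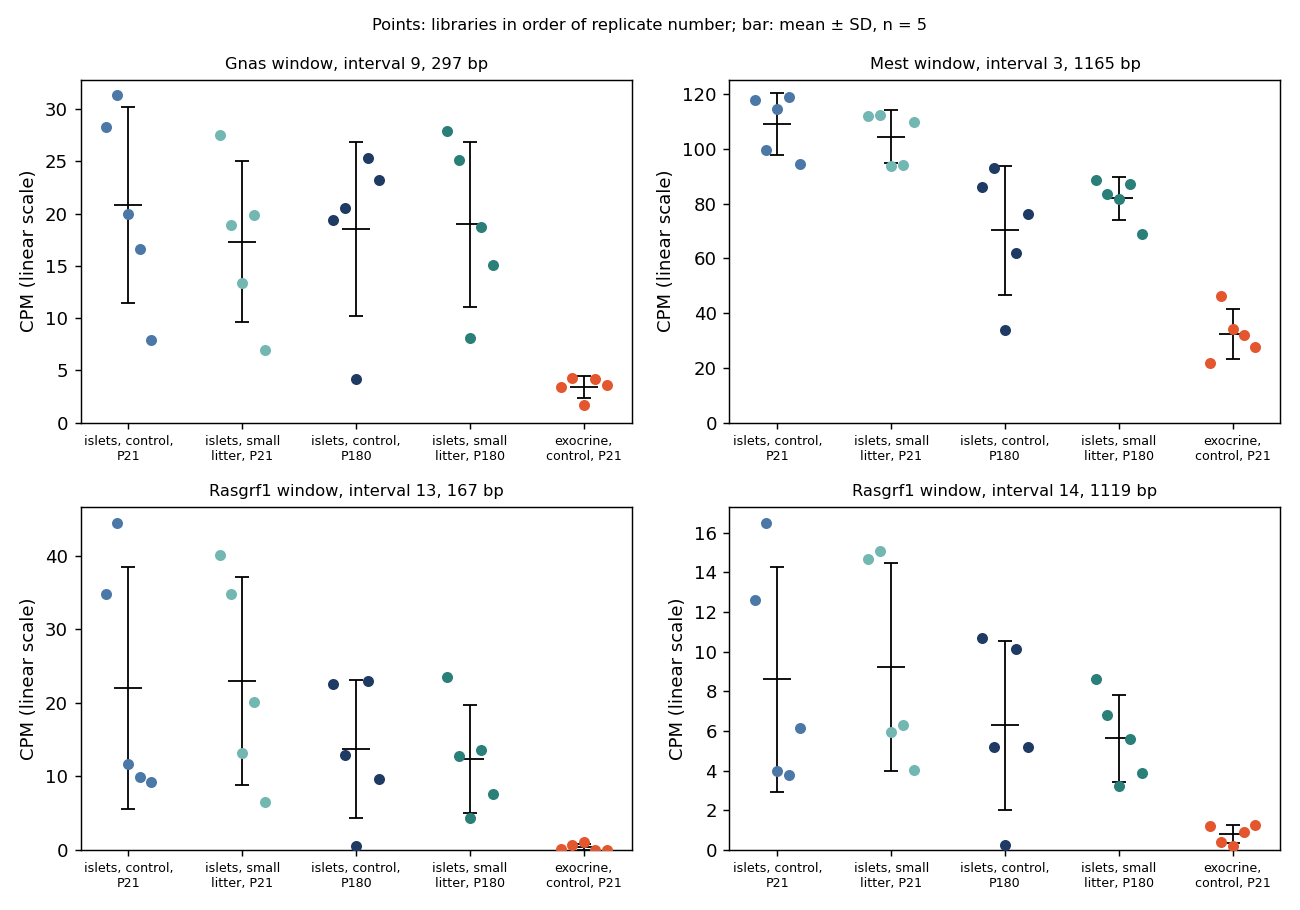
CPM in each library at 4 of the 5 intervals with the largest losses in exocrine tissue (the other, in the Igf2r window, is not drawn): 1 of the Gnas window, 1 of the Mest window and the adjoining pair of the Rasgrf1 window. Each panel has its own linear axis from 0, points are libraries in order of replicate number and bars give mean ± SD (n = 5). Exocrine points lie below all control P21 islet points in each panel. The lowest control P180 point in every panel is replicate 3.

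Among the called intervals 1 islet library often had the value nearest to exocrine tissue. Of the 20 islet libraries, control P180 replicate 3 was nearest to the exocrine end at 9 of the 28 higher and at 15 of the 36 lower intervals. What sets that library apart was not tested.

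Interval length moved with the tissue difference. Of the 18 members tested under 250 bp, 9 were lower and 1 higher in exocrine tissue, with a median log2 fold change of -1.07, close to -1.08 over all intervals of that length, of which 44.0% were lower. From 250 to 500 bp, 7 of 42 were lower (23.4% of all intervals of that length) and 1 higher (3.5% of all). From 500 to 1000 bp, 8 of 58 were lower (12.4% of all) and 11 higher (13.6% of all). From 1000 to 2000 bp, 12 of 80 were lower (8.96% of all) and 11 higher (8.01% of all). Among the 65 of 2000 bp or more, none was lower (4.04% of all) and 4 were higher (9.07% of all) by the same edgeR test. The members' medians in these classes were -0.32, 0.18, -0.08 and 0.09. The median length was 538 bp for the lower and 1150 bp for the higher intervals. With each library's trend on length removed, the call counts became 45 higher and 29 lower in place of 28 and 36. These were 17.1% and 11.03% of members, against 12.1% and 11.6% of all intervals in that fit. All 28 higher intervals were still called in that fit, and 23 of the 36 lower ones. The losses named above in the Rasgrf1 (-4.73 and -3.50), Gnas (-2.06) and Mest (-1.86) windows remained. The short interval chr2:174125550-174125756 of the Gnas window went from 1.06 to 1.94.

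**Figure D4:**
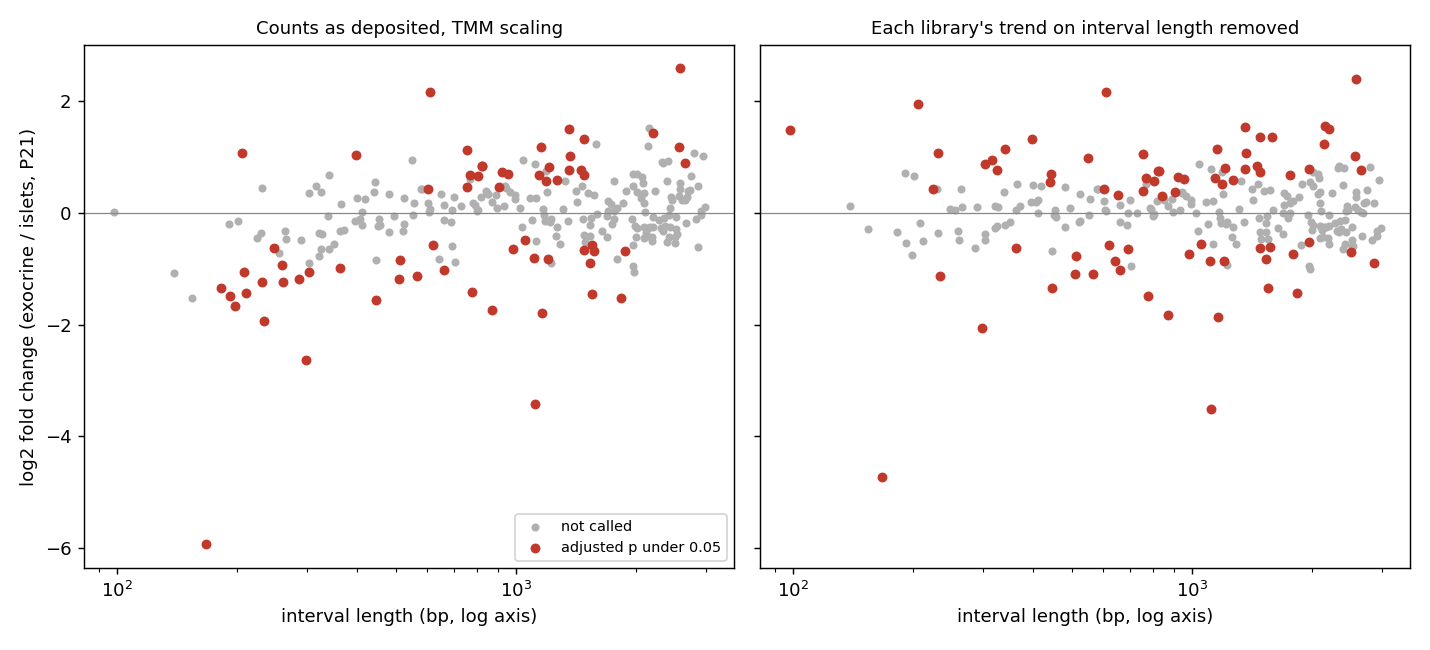
Log2 fold change of exocrine tissue over control P21 islets (vertical axis) against interval length in bp (log axis) for the members tested. Counts as deposited with TMM scaling are on the left, and the fit with each library's length trend removed is on the right. Red points passed an adjusted p of 0.05. On the left most intervals under 250 bp lie below 0, with a median of -1.07, and on the right the same 18 have a median of -0.07.

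Neighbouring intervals that share an end site were compared with each other. Among 76 adjoining pairs with both intervals tested, 54 had the same sign (71.1%, against 65.9% of 5897 such pairs in the whole table). In 7 pairs both were called in the same direction (9.21%, against 8.14%), and in 25 only 1 was called (32.9%, against 27.6%). No pair was called in opposite directions by the edgeR test (0.678% of all pairs). The 7 pairs lay in the Zdbf2, Nnat (3), Gnas, Igf2/H19/Kcnq1 and Rasgrf1 windows. Such intervals are not independent.

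Summed over a window, counts were dominated by a few strong intervals. The exocrine sums lay above all control P21 islet sums for the Zdbf2, Igf2/H19/Kcnq1, Dlk1 and Igf2r windows, and below them for none of the 16. No windows elsewhere in the genome were summed, so it is not known how often such a separation occurs outside these domains. For Zdbf2 the sums were 232 CPM ± 12.6 in islets and 368 ± 17.8 in exocrine tissue (SD, n = 5 each). The Igf2/H19/Kcnq1 sums were 1492 ± 97.3 and 1986 ± 309, those of Dlk1 3831 ± 240 and 4476 ± 372, and those of Igf2r 1036 ± 43.3 and 1245 ± 108. In the Dlk1 and Igf2r windows exocrine replicate 5 was highest, at 5134 and 1436 CPM.

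The second comparison asked how islets differed between weaning and adulthood, with the litter groups averaged (P180 over P21, 20 libraries). Here too a different mix of cells, exocrine cells among them, and a change within cells cannot be told apart. Of 264 members tested, 1 was higher at P180 (0.379%, against 0.194% of 22654 intervals) and none lower (0.0177% of all intervals, and 0.212% in either direction) by edgeR's test. At an unadjusted p under 0.05 there were 25 members (9.47%, against 9.57% of all intervals). DESeq2 called 2 higher and 2 lower (0.758% each, against 0.437% and 0.203% of all intervals), and limma voom 1 higher and none lower (0.283% and 0.0795% of all intervals). The median log2 fold change of members was 0.02, against -0.00 over all intervals, and the range was -0.76 to 0.76.

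The called interval was chr1:62955838-62956592, the right one of the adjoining Zdbf2 pair. Control islets at weaning had the CPM values given above, 47.1 to 57.0, and adult ones 74.6, 83.4, 86.0, 73.7 and 68.1. For small litters the weaning values were 76.2, 41.1, 44.6, 49.4 and 51.3 CPM and the adult values 75.4, 103, 80.9, 81.5 and 64.8. The ages did not overlap in control mice. In small-litter mice replicate 1 at P21 lay within the P180 range, and the other 4 lay below it. The log2 fold change with litter groups averaged was 0.63 ± 0.10 (adjusted p = 0.0153).

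Within control mice that rise was 0.64 and within small-litter mice 0.62, and the difference between these changes was -0.02 ± 0.20 (edgeR, unadjusted p = 0.94). Leaving out each of the 20 islet libraries in turn gave 0.58 to 0.70, with a largest adjusted p of 0.042. The exocrine mean, 114 CPM ± 12.6, was above those of all islet groups, although small-litter P180 replicate 2 (103 CPM) exceeded exocrine replicate 1 (101 CPM). The left interval of the pair moved alike, from 78.3 CPM ± 8.35 to 102 ± 23.0 in controls and, after small litters, from 82.4 ± 4.07 to 112 ± 17.3 (SD, n = 5 each). The change of 0.42 ± 0.10 on the log2 scale did not pass in edgeR (adjusted p = 0.081) and did in DESeq2 (adjusted p = 0.0351). Summed over the 7 intervals of the Zdbf2 window, the P180 values lay above the P21 values in both litter groups, at 299 CPM ± 40.6 against 232 ± 12.6 in controls and 292 ± 28.3 against 233 ± 12.1 in small-litter mice. The pair described here made up most of that rise. No other of the 16 windows had sums separated by age in either litter group, and windows elsewhere in the genome were not summed.

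**Figure D5:**
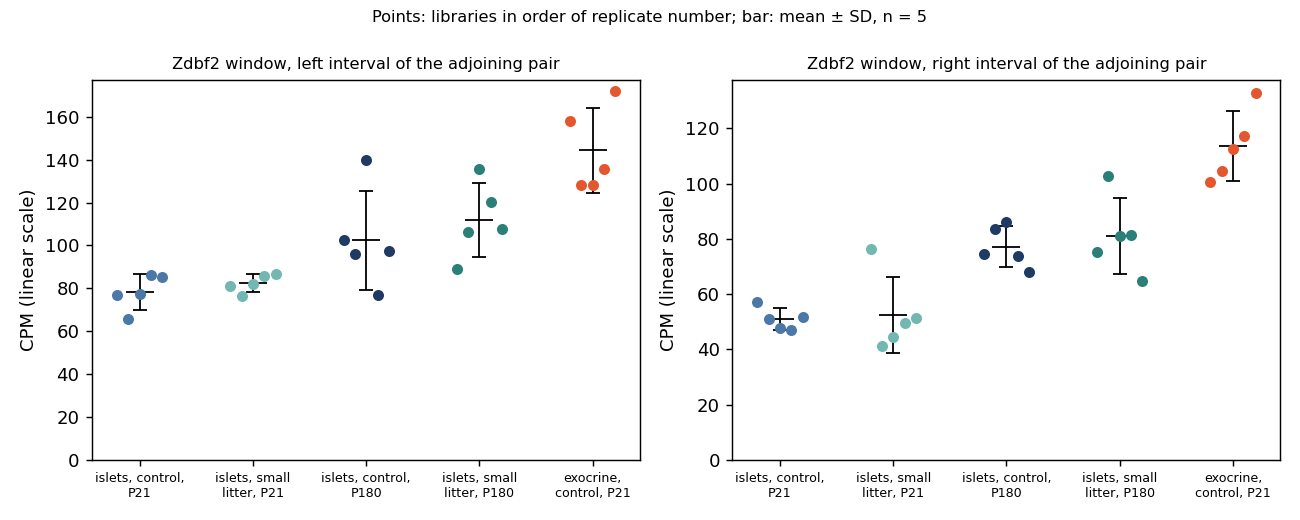
CPM of the adjoining pair of intervals in the Zdbf2 window, with the left interval in the left panel. Points are libraries in order of replicate number and bars give mean ± SD (n = 5). In the right panel the means are 50.8, 52.5, 77.2, 81.1 and 114 CPM from left to right, and small-litter P21 replicate 1 stands at 76.2 CPM.

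The next smallest p for age belonged to an interval that was lower at P180. At chr12:111481543-111483023 in the Dlk1 window weaning control islets had 61.4, 51.4, 63.8, 72.4 and 57.4 CPM, and adult ones 34.6, 46.3, 33.3, 41.8 and 46.2. The ages did not overlap in controls. Small-litter islets had 80.1, 60.2, 59.6, 42.2 and 57.9 CPM at weaning, against 45.6 ± 6.86 (SD, n = 5) in adults, and overlapped through replicate 4. The log2 fold change was -0.49 ± 0.11 (adjusted p = 0.07). It was called by DESeq2 (adjusted p = 0.00784), with the length trends removed (0.0275), among intervals with a mean of at least 50 counts (0.049) and without small-litter P21 replicate 4 (0.0485). Exocrine tissue had 39.9 CPM ± 7.69 there and was called lower than P21 islets, by -0.67 ± 0.18 (adjusted p = 0.0137).

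The interval chr6:30488818-30489983 of the Mest window had the smallest adjusted p between the tissues. It was the only member with all P180 libraries below all P21 libraries within each of the litter groups (0.379% of members, against 0.0177% of all intervals). No member was separated in this way on the higher side (0.0706% of all intervals). Control islets at P180 had 86.1, 93.1, 33.8, 61.9 and 76.3 CPM, below their P21 range of 94.4 to 119. After small litters the weaning values were 112, 113, 93.6, 94.2 and 110 CPM, the adult ones 88.5, 83.5, 81.6, 87.2 and 68.9. Control P180 replicate 3 was lowest of all 20 islet libraries, inside the exocrine range. The log2 fold change of -0.48 ± 0.13 did not pass in edgeR (adjusted p = 0.177) and did in DESeq2 (adjusted p = 0.0409).

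Both windows whose intervals shared 1 sign between tissues also shared 1 sign for age. The 5 Snrpn intervals were all positive, from 0.09 to 0.61, and the 5 Impact intervals all negative, from -0.52 to -0.06. None was called by edgeR. The smallest adjusted p among them was 0.288, at chr7:67006091-67008600 in the Snrpn window, where the mean went from 14.4 CPM ± 1.99 to 19.1 ± 3.40 in controls and from 13.7 ± 3.08 to 18.1 ± 3.62 after small litters (SD, n = 5 each). The 3 intervals of the Peg10 window were also all positive for age, from 0.01 to 0.16, and had both signs between tissues. The tissue and age contrasts share the control P21 islets, so their signs are not independent.

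Within 1 litter group, edgeR called no member for age (0 of 264 in each, and 0.0% of all intervals). At an unadjusted p under 0.05 there were 15 members in control islets (5.68%, against 4.64% of all intervals) and 11 in small-litter islets (4.17%, against 5.18%). DESeq2 and limma voom called no member in either as well. Over all intervals, DESeq2 called 0.053% higher and 0.0177% lower in controls, and limma voom 0.00883% higher and 0% lower. Neither tool called any interval in small-litter mice. At an unadjusted p under 0.05 DESeq2 had 12 members in controls and 13 in small-litter mice (4.55% and 4.92%, against 4.87% and 5.53% of all intervals). For limma voom these were 29 and 19 (10.98% and 7.20%, against 9.12% and 8.58%). The ages did not overlap at 2 members higher and 2 lower in controls (0.758% each, against 0.569% and 0.583% of all intervals). In small-litter mice this held for 1 higher and 2 lower (0.379% and 0.758%, against 0.653% and 0.446%). The smallest unadjusted p in small-litter mice belonged to the Zdbf2 pair and to chr7:150115621-150117076 in the Igf2/H19/Kcnq1 window, where the means were 46.0 CPM and 65.1 CPM (log2 fold change 0.49, unadjusted p = 0.0137 in edgeR).

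The last comparison asked whether litter size changed islet methylation at P21 or at P180, and whether it changed the difference between the ages. No member was called by edgeR for litter size at P21, at P180 or for the interaction (0 of 264 in each, and 0.0% of all intervals each time). The litter groups overlapped at every member at both ages, while over all intervals they were separated at 0.0795% (higher in small litters) and 0.0486% (lower) at P21 and at 0.168% and 0.159% at P180. DESeq2 and limma voom called no member in these contrasts either, and no interval of the whole table. At an unadjusted p under 0.05 edgeR had 2, 1 and 3 members (0.758%, 0.379% and 1.14%, against 0.927%, 0.887% and 0.998% of all intervals). The counts were 1, 2 and 3 for DESeq2 (0.379%, 0.758% and 1.14%, against 0.914%, 0.953% and 1.08% of all intervals). They were 6, 7 and 14 for limma voom (2.27%, 2.65% and 5.30%, against 3.02%, 3.84% and 5.75%). With no difference and a spread judged correctly, a share of about 0.05 of all intervals would lie under that threshold. The edgeR and DESeq2 shares were well below it, so both tests ran strict in these contrasts and their lack of calls is weak evidence. The reason was not tested. The median log2 fold change of members, small over control litters, was 0.00 at P21 and -0.00 at P180, with ranges of -0.53 to 0.76 and -0.90 to 0.64. A member's log2 fold change had a median standard error of 0.25 at P21 and 0.26 at P180, and shifts as large as those named below did not pass the adjustment.

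At P21 the smallest unadjusted p was at chr6:30565425-30567161 in the Mest window. Control islets had 2.81 to 4.601 CPM and small-litter islets 7.34, 5.77, 7.38, 3.45 and 5.17. The groups overlapped through small-litter replicate 4, and the log2 fold change was 0.66 ± 0.30 (unadjusted p = 0.0418, adjusted p = 1.00). The next were chr7:149574605-149577006 in the Igf2/H19/Kcnq1 window (0.39 ± 0.19, unadjusted p = 0.0494) and chr10:12642858-12644219 in the Plagl1 window (0.76 ± 0.41, unadjusted p = 0.0763).

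At P180 the smallest was at chr11:22892170-22894136 in the Zrsr1 window, with 8.44, 6.13, 4.72, 4.22 and 4.38 CPM in control and 2.46, 4.91, 2.45, 2.27 and 3.42 in small-litter islets. Small-litter replicate 2 lay within the control range, and the log2 fold change was -0.90 ± 0.36 (unadjusted p = 0.0215, adjusted p = 1.00). At chr15:72939303-72940449 in the Peg13 window it was -0.48 ± 0.24 (unadjusted p = 0.0627) and at chr2:174153896-174154838 in the Gnas window 0.44 ± 0.22 (unadjusted p = 0.0641). For the interaction, the age change of small-litter islets minus that of control islets, the smallest was the same interval of the Peg13 window at -0.78 ± 0.34 (unadjusted p = 0.0328). It was followed by chr12:111149792-111151645 in the Dlk1 window at -0.59 ± 0.26 (unadjusted p = 0.0374) and chr7:150065880-150068213 in the Igf2/H19/Kcnq1 window at -1.46 ± 0.66 (unadjusted p = 0.0379). In the last, islets of control mice had 0.613 to 10.46 CPM at P21.

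The intervals with the most counts in their windows gave 3 calls between the tissues among 16 (the share over all intervals, in either direction, was 22.1%). In the Nnat window chr2:157292363-157293359 had 309 CPM ± 39.9 in control P21 islets and 381 ± 89.4 in exocrine tissue (log2 fold change 0.25 ± 0.16, adjusted p = 0.272). The Peg3 window's chr7:6541747-6542933 had 133 and 125 CPM, and the Peg13 window's chr15:72940449-72941473 had 231 ± 33.3 and 252 ± 33.2. In the Zrsr1 window chr11:22920130-22920494 had 89.6 ± 36.6 and 104 ± 15.3 (SD, n = 5 each), and control islets alone ran from 57.3 to 140 CPM. The called ones were those of the Zdbf2, Igf2/H19/Kcnq1 and Igf2r windows, each higher in exocrine tissue.

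In 2 of these windows the most counted interval nearly vanished in 1 mouse. At chr6:5083176-5084071 in the Peg10 window small-litter P21 replicate 1 had 10.4 CPM and its group mates 123 to 165. At chr11:11928195-11928511 in the Grb10 window the same library had 0.918 CPM and its group mates 31.5 to 42.8. Neither interval passed in any contrast. This library also had the most intervals at 0 of all 25, 448 in the whole table. Such low values were not confined to it. Control P21 replicates 1 and 3 and small-litter P180 replicate 2 had 186, 277 and 205 intervals at 0. At chr2:173520887-173521224 in the Gnas window those libraries had 1.02, 0.613 and 0 CPM, and small-litter P21 replicate 1 had 0.306. The other control P21 libraries had 24.6 to 61.7 CPM there.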

How the data were processed

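MSA-seq libraries of 25 mice were analysed. Values are unnormalized counts of reads for each interval, deposited by the authors in 1 table. Per the submitters' processing notes, Bowtie 0.12.9, cutadapt and FastQC 0.10.1 were used with build mm9. How reads were assigned and PCR duplicates handled is not given in the sources used here. Amplified reads are not independent molecules, so precision is judged from the spread between mice. The members and lists were chosen with earlier results of these data known. The model was edgeR 4.0.16 under R 4.3.3: filterByExpr, TMM scaling, robust quasi-likelihood test, Benjamini-Hochberg adjustment over all intervals, threshold 0.05. Tissue was fitted on the 10 control P21 libraries and the islet contrasts on 20. Of the members, 3 did not pass the filter for tissue and 2 for the islet fit. CPM used TMM factors over all 25 libraries. Interval sequences and gene annotation of mm9 were not used.

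Intervals named in the text were the one with the most counts in each window, up to 10 per direction with the largest called change whose groups do not overlap, runs of 3 or more called in 1 direction, and the 3 smallest p where nothing qualified. Others were named to complete the account of a window, after their values were seen. Alternatives were RLE size factors, DESeq2 1.42.0, no filter, only intervals averaging 50 counts or more, limma 3.58.1 voom with library weights, all 25 libraries in 1 fit, a replicate block, removal of each library's trend on length (lowess, span 0.3), small-litter P21 islets in place of controls, and each library left out. The tissue fit was tested on simulated data of 22546 intervals, where it recovered 36% of 100 planted 2-fold and 91.8% of 97 planted 4-fold changes with 9 false calls. For age, on 22647 intervals, it recovered 68% and 100% of 100 planted changes each, with 7 false calls. Python 3.11.15 and matplotlib 3.10.9 drew the figures.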

Additional observations from a re-analysis of the deposited data

Results flagged for a closer look

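Among 315 groups of 5 libraries, over window sums and named intervals, 26 had 1 library far from the other 4, with a gap of more than 0.71 of the group's range. Chance alone marks about 1 in 20 groups. All values are CPM.

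Exocrine replicate 5 accounted for 7, each time as the highest. Its sums were 2082 in the Gnas window, 5134 in the Dlk1 window and 1436 in the Igf2r window. Its interval values were 323 at chr2:174125152-174125550, 81.3 at chr2:174125550-174125756, 64.0 at chr2:174153896-174154838 and 576 at chr12:110065029-110065833. The other 4 exocrine libraries had at most 1674, 4377 and 1221 in those sums and 233, 56.3, 39.7 and 453 at those intervals. Exocrine replicate 1 was highest at chr6:30565425-30567161, with 6.94.

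Small-litter P21 replicate 1 accounted for 4, each time as the lowest. It had 119 in the sum of the Peg10 window, 10.4 at chr6:5083176-5084071, 1.84 at chr7:150065880-150068213 and 0.918 at chr11:11928195-11928511. The nearest of its group mates had 218, 123, 7.70 and 31.5. Small-litter P21 replicate 5 was highest at chr7:150147709-150150361, with 22.9.

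Control P180 replicate 3 also accounted for 4. It was lowest at chr2:157301217-157301476, with 13.9, and at chr2:173900466-173900763, with 4.197, both intervals lower in exocrine tissue. It was highest at chr7:150565675-150566596, with 377, and at chr7:150613389-150614602, with 113, both intervals higher in exocrine tissue. Control P180 replicate 2 was lowest at chr12:110065029-110065833, with 312.

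In control P21 islets, replicate 3 had the lowest sum of the Plagl1 window, 246, replicate 2 was lowest at chr6:5083176-5084071, with 111, and replicate 4 at chr17:13388396-13388998, with 258. In small-litter P180 islets, replicate 1 was lowest at chr2:157292363-157293359, with 288, and at chr15:72940449-72941473, with 185. There replicate 4 was highest at chr6:30753188-30754610, with 127, and at chr17:13388396-13388998, with 425, and replicate 3 at chr15:72939303-72940449, with 57.7. Why these libraries stood apart was not tested.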

How the results depend on the processing

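The tissue counts of 28 higher and 36 lower kept within 1.5 times under most alternatives. Totals do not show whether the same intervals were called. Against small-litter P21 islets 19 of the 28 higher and 22 of the 36 lower were called again, and all kept their sign. That fit called 8.647% of members higher and 9.398% lower, against 5.679% and 10.32% of all intervals. The exceptions were on the higher side, with 43 under limma voom, 43 with all 25 libraries in 1 fit and 45 with length trends removed. These were 16.35%, 16.17% and 17.11% of members, against 13.25%, 12.34% and 12.14% of all intervals. In the main fit the shares were 10.65% and 8.075%. Leaving out each library gave 20 to 33 higher and 26 to 41 lower. For age the 1 higher call became 2 under DESeq2 and stayed at 1 to 1 when each library was left out. The 0 lower calls became 2 under DESeq2, 1 with a mean of at least 50 counts, 1 with the length trends removed and 1 without small-litter P21 replicate 4, for a range of 0 to 1 over left-out libraries. The contrasts of age in 1 litter group, of litter size and of their interaction had 0 members called under each alternative run. The range was 0 to 0 over left-out libraries. The causes were not tested. No sign changed among the 24 tissue and 3 age fold changes of named intervals that were refitted.

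With the replicate number as a block the counts were 23 higher and 26 lower for tissue, 1 and 0 for age and 0 for the other contrasts. The tissue shares were 8.745% and 9.886% of members, against 5.916% and 9.27% of all intervals. For age they were 0.379% and 0%, against 0.159% and 0.0397%. Deviations of same-numbered libraries from their group means correlated at -0.26 to 0.056 between exocrine tissue and control P21 islets, with 0 of 5 numbers best matched to their own. Between the litter groups they ran from -0.19 to 0.65 at P21 (3 of 5 best matched) and from 0.030 to 0.557 at P180 (2 of 5), a hint of pairing there in the data and not in the labels. Since no comparison had every pair over 0.1, the numbers were not used to pair mice. In the simulation 36% of the 2-fold changes for tissue were recovered, so differences of that size at single intervals can be missed. Only 100 and 97 intervals were changed there, while 22.1% of all intervals were called in the data. The adjusted threshold was therefore stricter in the simulation, and the 36% is not the recovery of the real comparison.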
